A study of Mus musculus with 6 samples.

Results

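The nuclear-encoded genes of the mitochondrial respiratory chain were followed in mouse neural progenitor cells (NPCs) with and without Ybx1, a protein that binds DNA and RNA and is named after the Y-box promoter element. The members are all gene symbols in the count tables that start with Nduf, Cox4 to Cox8, Uqcr or Atp5 and carry no hyphen, which gave 89 of 51733 symbols. By their known roles, 36 encode subunits of complex I (NADH dehydrogenase), 8 of complex III (cytochrome bc1), 18 of complex IV (cytochrome c oxidase) and 15 of complex V (ATP synthase). A further 9 encode assembly factors and 3 encode related proteins. Ndufa4 was counted with complex IV, where its protein is found. Left out were 7 hyphenated symbols of gene copies, with 8 to 103 counts each over all libraries.

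Complexes I, III and IV pass electrons from NADH to oxygen and pump protons out of the mitochondrial matrix, and complex V lets the protons back in to make ATP. Most of their subunits are encoded in the nucleus, are small, and are made from short, abundant transcripts. A few catalytic subunits are encoded by mitochondrial DNA. Several subunits of complexes IV and V exist in alternative forms from separate genes, and some of those forms are known from heart, skeletal muscle, lung or testis. Progenitors of the embryonic neural tube are known to rely more on glycolysis than the neurons that they form.

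RNA was extracted from Sox2-positive cells sorted from E13.5 neural tubes of C57BL/6 embryos. There were 3 control libraries (genotype wildtype) and 3 Ybx1-KO libraries (genotype YBX1KO, a germline null allele, carried by every cell type of the embryo). The controls were siblings, the progenitors carried a Sox2-eGFP reporter, and embryos of both sexes were used. The titles of control 1 and control 2 share their first number, as do those of Ybx1-KO 1 and Ybx1-KO 2, and the meaning of that number is not given in the sources used here, so the libraries within a group may not be independent.

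The libraries held 4743279 to 23883542 counts on genes, and the 3 Ybx1-KO libraries were the 3 shallowest. Levels are given as CPM, counts scaled to 1000000 per library after TMM scaling, and 3 counts corresponded, before that scaling, to 0.126 CPM in the deepest library and 0.632 CPM in the shallowest. Ybx1 stood at 235, 523 and 301 CPM in the controls and, in Ybx1-KO 1, 2 and 3, at 124, 54.5 and 9.52 CPM, so that it was lower in each Ybx1-KO library without being absent from any. The counts cover the whole gene and do not set its deleted part apart. Its log2 fold change was -2.49 ± 0.68 (SE), with an adjusted p of 0.300 by the quasi-likelihood test of edgeR. Library Ybx1-KO 3 stood apart, with 7.22% of its read pairs on genes where the other libraries had 18.0% to 24.7%. It also held 4691 CPM (before TMM scaling) over 1944 receptor genes of the senses of smell and taste, where the others held 25.5 to 98.3. Of the markers of the sorted cells, Sox2 itself was present in every library at 17.2 to 49.8 CPM, and the summed level of 8 progenitor markers was 1430 to 1597 CPM in the controls and 1084 to 1809 in the Ybx1-KO libraries. Of the 8, 5 had positive and 3 had negative log2 fold changes. Nes and Hes5 were higher at an unadjusted p under 0.05 without overlap, at 1.44 ± 0.45 and 1.05 ± 0.38 (SE). The negative ones were Fabp7, Sox1 and Sox2, at -0.66 ± 0.57, -0.53 ± 0.40 and -0.006 ± 0.44. The adjusted p of Hes5 was 0.432 by edgeR's quasi-likelihood test. The authors list Hes5 among the genes lower in Ybx1-KO NPCs, which is the opposite direction. They report it lower in their RNA-seq and also by RT-qPCR in NPCs purified from brains alone, which these libraries do not set apart. Ybx1-KO 1 had the smallest share of read pairs outside annotated features, 30.6% against 32.3% to 59.5% in the others. Markers of other cells were also present. The 7 neuron markers summed to 2919 to 4323 CPM in the controls and 1170 to 3141 in the Ybx1-KO libraries, and the 7 erythroid markers to 472 to 1151 and 152 to 886. The 4 mesenchyme markers summed to 108 to 744 CPM in the controls and 55.4 to 106 in the Ybx1-KO libraries, with all 4 lower at an unadjusted p under 0.05. Endothelial markers summed to 17.6 to 39.1 CPM against 11.3 to 33.6, microglia and macrophage markers to 7.32 to 23.3 against 3.35 to 21.6, and muscle and heart markers to 39.2 to 74.7 against 10.4 to 42.5. The part of these differences in the values below was not tested. In bulk libraries, fewer cells of a type and less RNA per cell cannot be told apart.

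The 89 members took 0.552%, 0.339% and 0.715% of the counts on genes in control 1, 2 and 3 and 1.27%, 0.354% and 0.762% in Ybx1-KO 1, 2 and 3. Levels of different genes were compared only per kilobase of the main transcript. On that scale the highest mean level over all 6 libraries was that of Cox7c, a small subunit of complex IV, at 594 CPM per kb. The catalytic beta subunit of ATP synthase, Atp5b, followed at 396 CPM per kb, and Cox6a1 at 370, Cox6c at 356, Atp5h at 290 and Atp5g3 at 279. The order among the first of these does not hold beyond the spread, because Cox7c stood at 344 ± 173 CPM per kb (SD, n = 3) in the controls, where Atp5b stood at 424 ± 66.5. The median subunit stood at 47.5 CPM per kb in complex I, 80.3 in complex III, 90.5 in complex IV and 133 in complex V, and the median assembly factor at 7.20.

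The promoters of 4 members, chosen as examples and none of them called, are shown to place the letters of known motifs. The letters searched, on both strands, were GCATGCGC for NRF1, CCGGAAG for GABP and other ETS factors, AAGATGGC for YY1, CCAAT for the CCAAT box and CTGATTGG for the Y-box, which contains an inverted CCAAT box. The first 3 factors are known regulators of respiratory chain genes. In the sequences, taken from RefSeq on GRCm38.p6 and ended before the annotated gene, capitals mark any of these letters, and 10 capitals in a row in Cox6a1 and Ndufaf4 are a site that matches NRF1 on both strands.
Cox6a1, minus strand of chr5:115348982-115349158: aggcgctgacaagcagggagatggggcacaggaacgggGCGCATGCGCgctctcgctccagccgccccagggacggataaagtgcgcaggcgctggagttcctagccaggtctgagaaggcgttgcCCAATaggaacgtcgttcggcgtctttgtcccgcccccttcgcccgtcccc
Atp5b, plus strand of chr10:128083107-128083272: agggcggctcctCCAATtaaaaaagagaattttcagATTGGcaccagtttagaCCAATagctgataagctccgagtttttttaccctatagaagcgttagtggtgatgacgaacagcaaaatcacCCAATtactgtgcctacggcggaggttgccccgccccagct
Ndufaf2, minus strand of chr13:108158626-108158825: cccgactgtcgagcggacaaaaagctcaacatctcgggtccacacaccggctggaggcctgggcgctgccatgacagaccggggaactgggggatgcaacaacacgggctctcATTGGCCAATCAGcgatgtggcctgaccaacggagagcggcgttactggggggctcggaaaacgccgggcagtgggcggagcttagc
Ndufaf4, plus strand of chr4:24897883-24898082: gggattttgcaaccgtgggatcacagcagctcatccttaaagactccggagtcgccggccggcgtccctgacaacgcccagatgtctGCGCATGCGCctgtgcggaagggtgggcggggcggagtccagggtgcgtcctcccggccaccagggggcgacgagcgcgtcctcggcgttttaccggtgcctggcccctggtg

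A promoter window, 250 bases before to 50 after the start, was matched for 74 of the 89 members, 71 by symbol and 3 by a RefSeq synonym. The NRF1 letters stood in the windows of 11 members (14.9%), against 5.36% of 11562 tested genes with a window and 3.05% of all 27025 genes with one. The YY1 letters stood in 12 members (16.2%, against 4.83% and 3.19%) and the ETS letters in 16 (21.6%, against 17.5% and 9.93%). The CCAAT box stood in 33 members (44.6%), close to the 42.5% of tested genes. The Y-box letters stood in 4 members, Ndufa6, Ndufaf2, Ndufb11 and Ndufs8, or 5.41% against 6.22% of tested genes. The log2 fold changes of these 4, Ybx1-KO against control, were 0.30 ± 0.55, -0.998 ± 0.462, 0.52 ± 0.55 and 0.04 ± 0.40 (SE), so they lay on both sides of 0. These are matches of letters and not binding sites.

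Loss of Ybx1 was compared with control over all genes tested, and no member differed at an adjusted p below 0.05 with a fold change above 1.5 by edgeR's quasi-likelihood test. Of the 89 members, 88 were tested, as Cox6a2 did not pass the filter, and 6 of the 88 passed it through the Ybx1-KO group alone. The share called over all 21298 tested genes was 0% in either direction, and the smallest adjusted p was 0.167 over all genes and 0.404 over the members (Ndufa2). At an unadjusted p under 0.05, 7 members were higher in the Ybx1-KO libraries and 2 lower, or 7.95% and 2.27% of the members, against 6.95% and 4.26% of all tested genes. No member had its 3 Ybx1-KO libraries all above the 3 controls, where 4.99% of all tested genes did, and 4 members (4.55%) had them all below, where 8.17% of all tested genes did. Each of these shares of the members was near to or below the background. By limma-voom, 3 members were higher and 1 lower at an unadjusted p under 0.05, and by DESeq2 10 were higher and 1 lower, with no call by either tool. The shares of all tested genes by these 2 tools are not given, so these counts are not read as results about the members. The absence of calls rested on Ybx1-KO 2. Without that library 6 members were called higher, Ndufa2, Ndufb2, Ndufb4, Ndufb7, Ndufb8 and Atp5k, as were 1.31% of all tested genes, with adjusted p-values of 0.00318 to 0.0441 in edgeR, and with any other single library left out no member was called.

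The fold changes leaned upward all the same, with 64 of 88 positive and a median log2 fold change of 0.51. The median over all tested genes was 0.31, with 61.2% positive, and that over tested protein-coding genes 0.05, with 52.9% positive. Among the 82 members that passed the filter in both groups, 58 were positive and the median was 0.45. The median of complex I was 0.53 (28 of 36 positive), of complex III 0.48 (6 of 8), of complex IV 0.83 (14 of 17) and of complex V 0.38 (9 of 15), whereas that of the assembly factors was -0.53 (4 of 9 positive). In complex IV 5 of the 17 passed the filter through the Ybx1-KO group alone, and of the other 12, 9 were positive with a median of 0.47. With offsets for exon length the median of the assembly factors was -0.095 and those of the complexes ran from 0.40 (IV) to 0.71 (V). The upward direction rested on 1 library. Without Ybx1-KO 1, 31 of 88 members were positive and the median was -0.16, below the 0.22 of all tested genes, and complex III had a median of -0.22. Without Ybx1-KO 3, the library that stood apart, 64 of 88 were positive and the median was 0.60, against -0.07 over all tested genes. With the libraries that share a title number summed, 55 of 88 were positive and the median was 0.18.

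**Figure D1:**
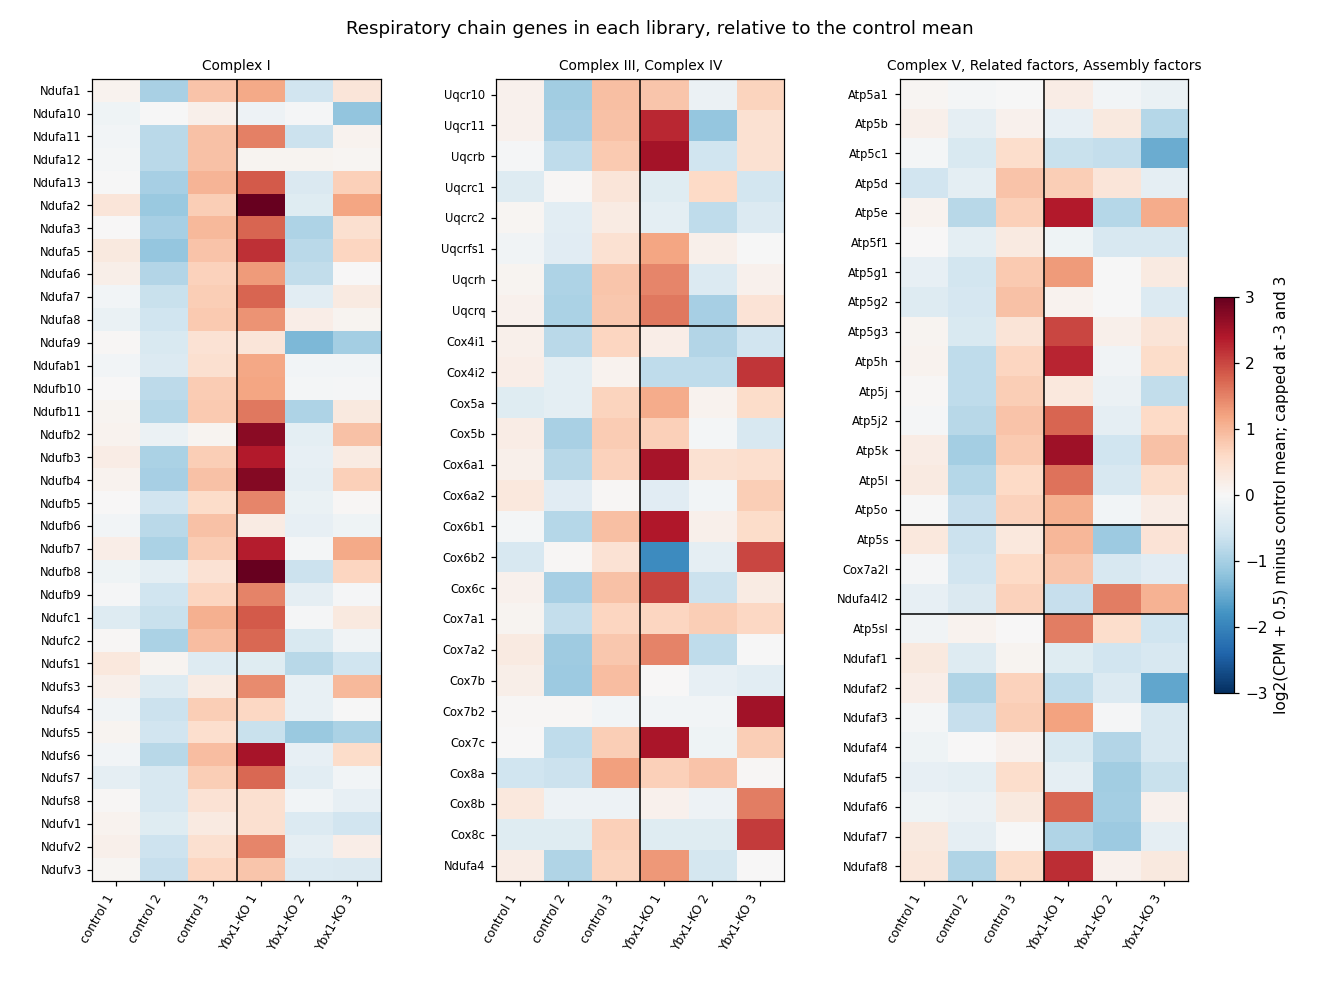
Level of 88 of the 89 members (rows, by complex) in each library (columns), as log2(CPM + 0.5) minus the mean of the 3 controls; red is higher and blue lower. The columns of control 2 and Ybx1-KO 1 stand out as blue and red, more than either group as a whole.

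The members moved together from library to library, within the groups as much as between them. Ybx1-KO 1 held the highest of the 6 values for 55 of 88 tested members, control 3 for 20 and each of the other libraries for 5 or fewer, while control 2 held the lowest for 53. Relative to the mean of the controls on the log2(CPM + 0.5) scale, the median member stood at 0.04, -0.65 and 0.70 in control 1, 2 and 3 and at 1.19, -0.27 and 0.11 in Ybx1-KO 1, 2 and 3. Control 3 exceeded control 2 for 84 of 88 members, with a median difference of 1.38 on the log2 scale. Ybx1-KO 2 exceeded Ybx1-KO 1 for 9 of 88 members, with a median difference of -1.28, although the titles of these libraries share their first number. Ybx1-KO 2 and Ybx1-KO 3 lay between control 2 and control 3 in the median member, so that 2 of the 3 Ybx1-KO libraries were inside the range of the controls.

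Summed over all members, the level was 5435, 3730 and 7719 CPM in the controls and 11983, 4821 and 5058 CPM in the Ybx1-KO group. The groups overlapped, and the means of 5628 ± 2001 and 7287 ± 4068 CPM (SD, n = 3) differed by less than the spread of either. Complex I summed to 1380, 912 and 2070 CPM in the controls and 3686, 1065 and 1381 in the Ybx1-KO libraries. Complex IV had the highest ratio between its highest and lowest library, 5.81, from 562 CPM in control 2 to 3266 in Ybx1-KO 1. Complex V had the lowest such ratio of the complexes, 2.09, from 1806 CPM in control 2 to 3768 in Ybx1-KO 1, and complex III ran from 272 to 894 in the same libraries. The assembly factors, which chaperone subunits and do not stay in the finished complex, summed to 158, 117 and 210 CPM in the controls and 204, 109 and 101 in the Ybx1-KO libraries.

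**Figure D2:**
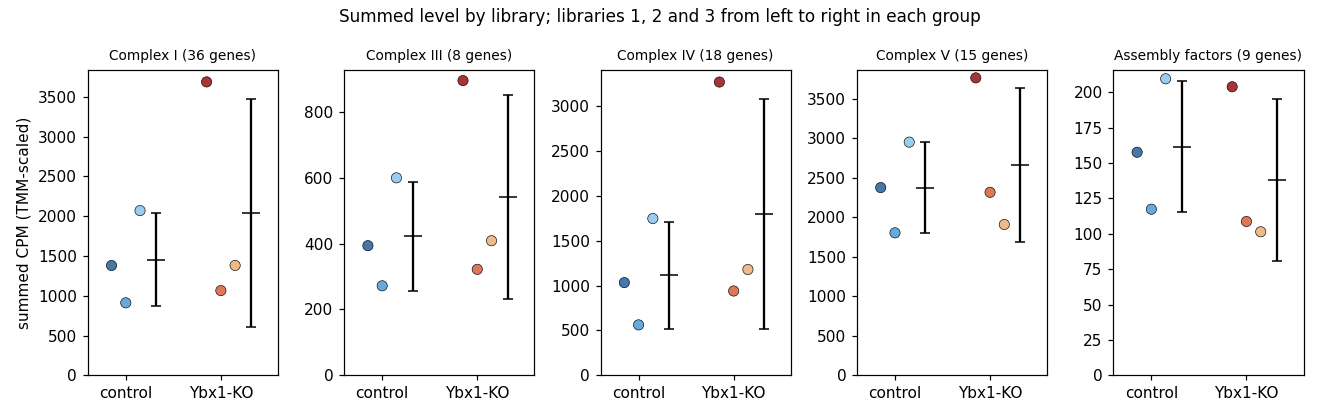
Summed CPM of the members of each complex and of the assembly factors, with 1 point per library and the mean ± SD (n = 3) beside the points. Ybx1-KO 1 is the highest library in all 4 complexes and control 3 in the assembly factors, and the groups overlap in every panel.

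In complex I, 5 accessory subunits were higher at an unadjusted p under 0.05, or 13.9% of its 36 genes against 6.95% of all tested genes. Lower at that limit were 0%, against 4.26% of all tested genes. The accessory subunits surround the catalytic core and are needed for its assembly and stability. Ndufb2 stood at 12.7, 10.4 and 12.5 CPM in the controls and at 79.2, 9.50 and 22.3 CPM in the Ybx1-KO group. Ybx1-KO 2 was thus below each control, and the mean of 37.0 ± 37.1 CPM (SD, n = 3) was set by Ybx1-KO 1. The log2 fold change was 1.65 ± 0.58 (SE), with an adjusted p of 0.416 by edgeR's quasi-likelihood test. Ndufb2 lies on chr6:39592574-39603382 of GRCm38.

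Ndufb8 stood at 15.0 and 22.4 CPM in control 1 and control 3, a little below control 1 in control 2, and at 154, 10.3 and 26.3 CPM in the Ybx1-KO group, with the same order of the Ybx1-KO libraries as Ndufb2. Its log2 fold change was 1.90 ± 0.68 (SE). Ndufa2 showed the widest gap of these genes, with 36.5, 12.8 and 47.0 CPM against 392, 21.8 and 64.7 CPM, and a log2 fold change of 2.31 ± 0.77. Ndufb7 and Ndufb4, the other subunits of this kind, had log2 fold changes of 1.32 ± 0.55 and 1.47 ± 0.65. In all 5 genes Ybx1-KO 1 was the highest and Ybx1-KO 2 lay within or below the range of the controls.

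The core subunits of complex I carry its flavin and iron-sulfur clusters. Of the 7 core subunits, 4 were positive with a median log2 fold change of 0.04, against 24 of 29 accessory subunits with a median of 0.53. The core subunits also had the longer main transcripts, with a median of 1623 against 732 bases. Ndufs1, the largest core subunit, stood at 46.8 to 76.6 CPM in the controls and 34.2 to 48.0 in the Ybx1-KO libraries, and Ndufv1, which binds NADH, at 29.7 to 46.7 and 25.9 to 54.4. The accessory subunit Ndufs5 was without overlap between the groups, at 7.37, 4.56 and 10.1 CPM against 4.24, 2.96 and 3.36, and 27.0% of the 100-base windows of its main transcript also occur in another gene.

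**Figure D3:**
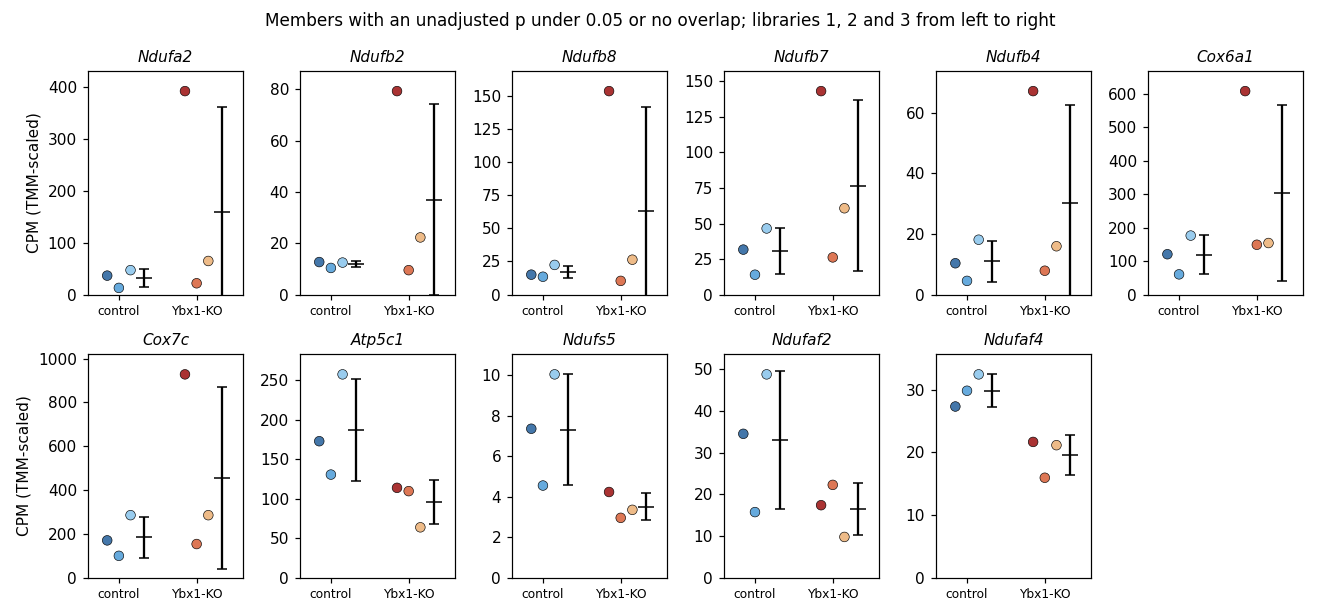
CPM in each library of 11 members with an unadjusted p under 0.05 or without overlap between the groups, with the mean ± SD (n = 3) beside the points and SD bars ending at 0 where they would pass it. In the first 7 genes 1 Ybx1-KO library is far above the rest, and Atp5c1, Ndufs5 and Ndufaf4 are lower in all 3 Ybx1-KO libraries.

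Among the assembly factors of complex I, Ndufaf4, on chr4:24898083-24905001, was the one without overlap. It stood at 27.3, 29.8 and 32.4 CPM in the controls and at 21.7, 15.9 and 21.1 CPM in the Ybx1-KO group. The groups did not overlap and both were tight, and the log2 fold change of -0.61 ± 0.37 (SE) had an adjusted p of 0.476 by edgeR's quasi-likelihood test. For each of the 4 members without overlap, the two-sided exact permutation test over the libraries gave 0.1, the smallest p that 3 against 3 libraries allow. The lack of overlap fixes that p in advance, so the test adds nothing to it. Ndufaf2, whose promoter holds the Y-box letters shown above, stood at 34.5, 15.8 and 48.8 CPM against 17.4, 22.3 and 9.80, with a log2 fold change of -0.998 ± 0.462, and control 2 lay inside the range of the Ybx1-KO libraries. Ndufaf5, an enzyme that modifies a core subunit during assembly, had a log2 fold change of -0.69 ± 0.41. Ndufaf1, at -0.53 ± 0.57, and Ndufaf7, at -0.76 ± 0.46, had the same sign, while Ndufaf3, Ndufaf6, Ndufaf8 and Atp5sl were positive, at 0.31 to 1.15.

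In complex III, none of the 8 genes reached an unadjusted p of 0.05. The core protein Uqcrc1 stood at 35.5, 48.0 and 60.2 CPM in the controls and at 36.3, 71.4 and 31.8 in the Ybx1-KO libraries, and Uqcrc2, the other core protein, had a log2 fold change of -0.49 ± 0.38 (SE). The iron-sulfur protein Uqcrfs1 stood at 53.4, 45.8 and 79.4 CPM against 132, 64.0 and 57.7. Among the small subunits, Uqcrh, the most abundant per length at 201 CPM per kb, stood at 87.5, 43.3 and 147 CPM against 230, 61.6 and 90.7. Uqcrb had the highest log2 fold change of the complex, at 1.24 ± 0.62, from 16.8 to 49.4 CPM in the controls against 164, 18.6 and 39.3. In each of these but Uqcrc1 and Uqcrc2 the highest value was that of Ybx1-KO 1.

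In complex IV, Cox6a1 and Cox7c were the most abundant of the members higher at an unadjusted p under 0.05. Cox6a1 stood at 121, 60.4 and 176 CPM in the controls and at 608, 149 and 154 CPM in the Ybx1-KO group. Only Ybx1-KO 1 lay above the range of the controls, and the log2 fold change of 1.35 ± 0.58 (SE) had an adjusted p of 0.444 by edgeR's quasi-likelihood test. The gene lies on chr5:115345642-115348981. Cox7c, on chr13:86044816-86046904, stood at 171, 100 and 286 CPM against 928, 154 and 286, with a log2 fold change of 1.30 ± 0.61, and 44.4% of the windows of its transcript also occur in another gene. Cox4i1, Cox5a and Cox5b, larger nuclear subunits of the complex, gave other values. Cox4i1 stood at 154, 77.7 and 216 CPM against 159, 74.4 and 92.0, and Cox5b at 73.5, 32.1 and 107 against 104, 60.3 and 45.3, while Cox5a had a log2 fold change of 0.57 ± 0.42.

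The forms of the complex IV subunits found were those of most tissues. Cox4i1, Cox6a1, Cox6b1, Cox7a2, Cox7b and Cox8a had mean levels of 62.1 to 370 CPM per kb, whereas Cox4i2, known from lung, Cox6a2 and Cox8b, known from heart and skeletal muscle, Cox7b2 and Cox8c each had at most 23 counts in any library. Cox4i2 had 10, 4 and 8 counts in the controls and 0, 0 and 23 in the Ybx1-KO libraries. Cox7b2 had 1, 1 and 0 counts in the controls and 0, 0 and 18 in the Ybx1-KO libraries, and Cox8c had 0, 0 and 11 against 0, 0 and 16. For these 3 genes, and for Cox8b with 4, 0 and 0 counts against 1, 0 and 8, the highest count was in Ybx1-KO 3, the library with receptor genes at 4691 CPM. Cox7b2 thereby had the highest log2 fold change of all members, 4.41 ± 2.86 (SE), from 18 counts in 1 library. Cox7a1, of muscle, stood at 0.09 to 1.00 CPM in the controls and 0.98 to 1.12 in the Ybx1-KO libraries, and Cox6b2, of testis, at 1.42 to 3.15 and 0.22 to 10.2. The supercomplex factor Cox7a2l stood at 84.9, 58.0 and 132 CPM against 154, 61.8 and 68.4. Ndufa4 stood at 96.3, 43.9 and 131 CPM against 204, 57.3 and 82.3, and its relative Ndufa4l2 at no more than 2.35 CPM in any library.

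**Figure D4:**
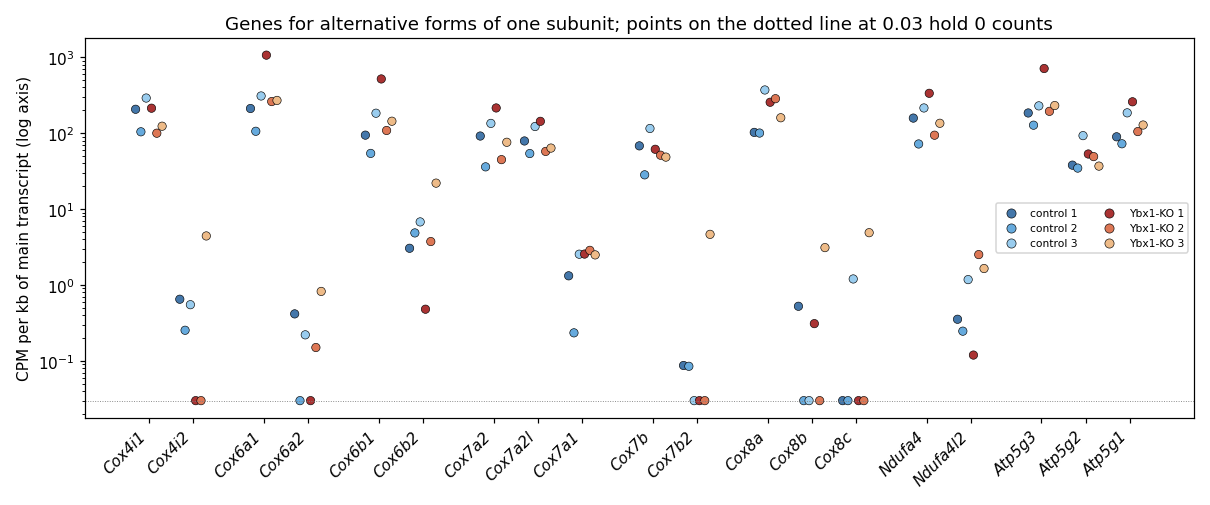
CPM per kb of main transcript (log axis) in each library for genes that encode alternative forms of a subunit, in groups by subunit; points on the dotted line hold 0 counts. Cox4i1, Cox6a1, Cox6b1, Cox7b and Cox8a lie above the other genes for the same subunit in every library, and the highest points of Cox4i2, Cox7b2, Cox8b and Cox8c are those of Ybx1-KO 3.

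In complex V, the soluble F1 part makes the ATP. Its alpha and beta subunits had log2 fold changes of -0.01 ± 0.44 and -0.21 ± 0.50 (SE). Atp5a1 stood at 442, 407 and 421 CPM in the controls and at 493, 401 and 371 in the Ybx1-KO libraries, and Atp5b at 893, 666 and 880 against 684, 983 and 447. Atp5c1, the gamma subunit that turns inside F1, was the subunit without overlap between the groups, at 173, 130 and 257 CPM against 114, 110 and 63.8. All 3 Ybx1-KO libraries were below the lowest control, and the log2 fold change was -0.96 ± 0.43 (SE), with an adjusted p of 0.444 by edgeR's quasi-likelihood test. Atp5c1 lies on chr2:10056016-10080510. Atp5e, the smallest F1 subunit, went the other way, at 59.5, 31.0 and 90.7 CPM against 291, 30.5 and 120, which left the 5 F1 subunits with a median log2 fold change of -0.01.

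The 10 genes of the stalk and of the membrane-bound Fo had log2 fold changes with a median of 0.60, and 7 were positive. Atp5h stood at 111, 60.8 and 163 CPM in the controls and at 505, 96.2 and 151 in the Ybx1-KO libraries. The 3 genes for the c subunit, whose ring turns as protons pass, yield the same mature protein. Atp5g3 was the most abundant of them at 132, 90.9 and 163 CPM against 507, 138 and 165, with Atp5g1 at 53.4, 43.2 and 110 against 154, 62.5 and 76.3 and Atp5g2 at 16.7, 15.3 and 40.9 against 23.4, 21.7 and 16.2. The levels of Atp5g1 and Atp5g2 are uncertain, because 57.3% and 100% of the windows of their transcripts also occur in other genes, as do 69.0% of those of Atp5l. Of the 89 members, 31 share at least 1 such window, and 3 share more than 50% of them.

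The members were short, and the share of positive fold changes differed with length. The main transcript had a median of 760.5 bases over the 88 tested members against 1902 over all tested genes, and 64.8% of the members were at most 1000 bases long against 31.4% of all tested genes. Of the 57 members of at most 1000 bases, 50 were positive and the median was 0.69 on the log2 scale, and of the 31 longer members 14 were, with a median of -0.04. In members of at most 600 bases, 26 of 28 were positive with a median of 0.81. Tested protein-coding genes of the same length had a median of 1.19, with 81.8% positive, and those longer than 600 and up to 1000 bases a median of 0.54, against 0.56 in the 29 members of that length. From 1001 to 1500 bases the medians were 0.30 in 16 members and 0.31 in protein-coding genes. From 1501 to 2500 bases, 4 of 13 members were positive with a median of -0.11, against 58.2% and 0.16 in protein-coding genes. From 2501 to 4000 bases, 0 of 2 members were positive with a median of -0.62, against 51.7% and 0.03. Above 4000 bases, where no member lay, the median of protein-coding genes was -0.15. Short members were also the ones that differed most between libraries of 1 group. Those of at most 600 bases stood at a median of -0.82 in control 2 and 0.77 in control 3, relative to the control mean on the log2(CPM + 0.5) scale. Those above 1500 and up to 2500 bases stood at -0.28 and 0.25. In Ybx1-KO 1 and Ybx1-KO 3, members of at most 600 bases stood at 1.54 and 0.49, and protein-coding genes of that length at 0.13 and 0.80. From 601 to 1000 bases the members stood at 1.48 and 0.22, and the protein-coding genes at 0.15 and 0.31. Of the Ybx1-KO libraries, the highest was thus Ybx1-KO 1 in these members and Ybx1-KO 3 in the protein-coding genes of the same lengths. With offsets for exon length the members' median log2 fold change was 0.50, below the 0.59 of all tested genes, and 70 of 88 members were positive. Tested protein-coding genes had a median of 0.51 with these offsets. The offsets use all annotated exons of a gene together and not the main transcript. The 2 lengths can differ widely, as in Ndufb2 with 5628 and 455 bases. Without offsets the medians of the members, all tested genes and tested protein-coding genes were 0.51, 0.31 and 0.05, with 64 of 88 members positive.

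**Figure D5:**
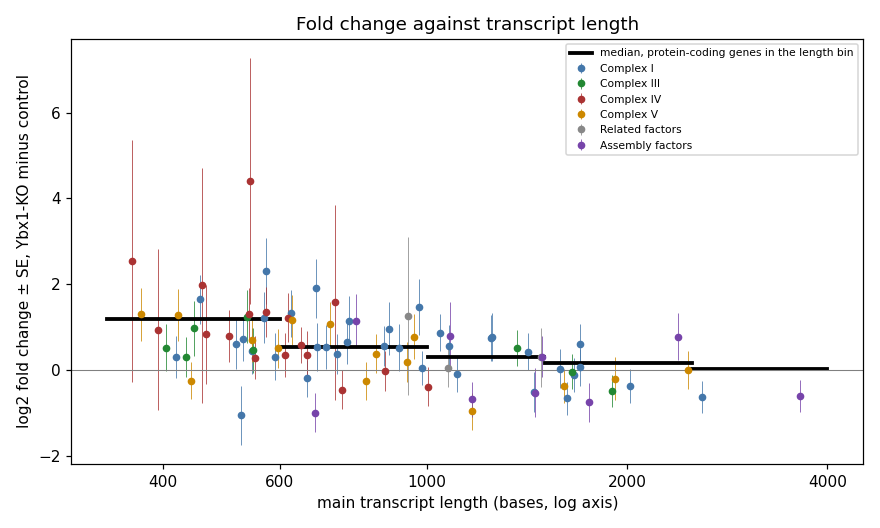
Log2 fold change ± SE (vertical axis) of each tested member against the length of its main transcript in bases (horizontal log axis), coloured by complex, with black bars at the median of all tested protein-coding genes in each length range. Members of at most 1000 bases lie mostly above 0 and longer ones on both sides. The black bars fall with length, from 1.19 up to 600 bases to 0.03 at 2501 to 4000 bases, and stay above 0.

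Other genes of the pathway were read beside the members. Complex II and cytochrome c, the links of the chain that the naming rule leaves out, had 2 of 6 genes positive, a median of -0.20 on the log2 scale and none at an unadjusted p under 0.05. Sdhc, a membrane anchor of complex II, stood at 76.9, 56.5 and 103 CPM in the controls and 335, 86.7 and 71.7 in the Ybx1-KO libraries. Of the 13 subunits encoded in mitochondrial DNA, 12 were tested and 9 were positive, with a median of 0.75. Their summed level was 19154 to 24141 CPM in the controls and 10554 to 21638 in the Ybx1-KO libraries, so the groups overlapped. The largest gene of that sum in every library was mt-Co1, at 10438, 14321 and 11703 CPM in the controls against 3656, 11671 and 3130. The sum is therefore not read as the direction of the other subunits. By a limit set after the values were seen, 5 of the 12 averaged under 5 CPM over the libraries and all 5 were positive, and of the other 7, 4 were positive with a median of 0.34. The log2 fold changes of mt-Nd6 and mt-Co1 were -1.21 ± 0.61 and -0.98 ± 0.81 (SE). Of all 12, mt-Nd2 was higher at an unadjusted p under 0.05, at 397, 288 and 220 CPM against 1127, 393 and 712.

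Assembly factors outside the naming rule lay on both sides of 0. Of 19 tested factors of complex IV, 12 were positive with a median of 0.45, with 1 higher and 1 lower at an unadjusted p under 0.05. The one higher was Coa3 (21.3, 12.5 and 35.1 CPM against 141, 20.9 and 29.7) and the one lower was Coa5 (55.2, 77.4 and 60.4 CPM against 37.6, 42.9 and 27.3), where the groups did not overlap. The 7 tested factors of complex I outside the Nduf symbols had a median of 0.03, and the 9 of complexes II and III a median of -0.02, with Uqcc2 higher at an unadjusted p under 0.05 (7.13, 4.74 and 15.6 CPM against 52.6, 8.07 and 16.1).

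Enzymes of the citric acid cycle, which feed the chain, had 10 of 13 genes negative with a median of -0.19, and 2 of them, Dld and Idh3b, were lower at an unadjusted p under 0.05 without overlap. Idh3b stood at 100, 63.5 and 108 CPM in the controls and 51.8, 53.7 and 45.9 in the Ybx1-KO libraries. Of 14 tested regulators of mitochondrial biogenesis, 7 were positive. The nuclear receptor Esrra stood at 6.09, 3.87 and 7.70 CPM against 48.7, 8.07 and 7.28, with a log2 fold change of 1.86 ± 0.65 (SE), and Gabpa, the ETS factor whose letters were searched, at 80.0, 91.2 and 61.8 against 37.3, 62.1 and 38.3. Nrf1, Tfam and Ppargc1a had log2 fold changes of 0.03 ± 0.37, -0.22 ± 0.39 and -0.40 ± 0.55. None of these lists held a gene with an adjusted p below 0.05.

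The ribosomal proteins, another class of short and abundant transcripts, followed the same order of libraries. The 82 cytosolic ribosomal protein genes summed to 18222, 10345 and 27407 CPM in the controls and to 30784, 13608 and 14705 CPM in the Ybx1-KO group, and the median was 0.03 on the log2 scale over 79 tested genes. As in the respiratory chain, control 2 was the lowest library and Ybx1-KO 1 the highest. The 77 tested mitochondrial ribosomal proteins, whose transcripts are longer with a median of 1280 bases, had a median of 0.15 on the log2 scale. At an unadjusted p under 0.05, 5 of the 77 were higher and 0 lower, against 6.95% and 4.26% of all tested genes. Without overlap, 4 were higher and 6 lower, against 4.99% and 8.17% of all tested genes.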

How the data were processed

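RNA-seq was made from 3 control and 3 Ybx1-KO samples with a TruSeq Stranded Total RNA kit and paired-end sequencing on HiSeq instruments. The authors counted read pairs on genes with HTSeq 0.6.1p1 and deposited raw counts per gene symbol, 1 table per library, with no normalization or filter. Per the labels, CASAVA and the builds mm10 and GRCm38.p5 were used; the aligner and the strand setting of the counting are not given in the sources used here, so counts of overlapping genes and of near-identical copies are uncertain. The 5 tally rows that name no gene were left out of library sizes and tests. No column was left unused.

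Groups came from the genotype label. Libraries are treated as replicates, and where they are not from separate embryos the p-values measure only the spread between these samples. Counts on genes were scaled by TMM (factors 0.734 to 1.51). Genes whose FPKM averaged over 1 in at least 1 group, from exon lengths of GENCODE M21 on GRCm38, were tested with edgeR 4.0.16 by the quasi-likelihood test in R 4.3.3, with Benjamini-Hochberg adjustment over all of them, and the calls required both a p under 0.05 after adjustment and more than a 1.5-fold difference. The biological coefficient of variation was 0.800. Of 51733 symbols, 47624 found a length by symbol, 280 by a RefSeq synonym and 3829 none. The main transcript is that of the best APPRIS rank, then the best support level, then the shortest. Where no transcript of a gene has an APPRIS rank, the longest was taken at the last step. Copies were sought as 100-base windows of it in transcripts of other genes. Single values were compared with a two-sided exact permutation test. Deviations from the control mean used log2(CPM + 0.5).

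Named genes are Ybx1, the 5 members with the smallest p in each direction, the 3 most abundant in each complex, central subunits, genes of alternative subunit forms, and in each list the 2 genes with the smallest p and 5 regulators; other members were named as members of counted groups. The values of 1 member are not reported here, though it is in the counts and sums. The members, lists and tests were chosen with earlier results of these data known. The alternatives were limma-voom (limma 3.58.1), DESeq2 1.42.0, 3 other scalings, 2 other filters, protein-coding genes alone, offsets for exon length, libraries with a shared title number summed, and leaving out each library. The tests were tested on simulated data. Limits drawn from 3 counts cover counting error only. Plots come from matplotlib 3.10.9 (Python 3.11.15).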

Additional observations from a re-analysis of the deposited data

How the results depend on the processing

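No member was called by any of the alternatives but with no filter, where 1 was higher, and without Ybx1-KO 2. Over the 6 fits that leave out a library, members called higher numbered 0 to 6 and those positive 31 to 72. Those higher at an unadjusted p under 0.05 numbered 0 to 28 and those lower 0 to 4. Those without overlap numbered 0 to 12 higher and 5 to 12 lower, where a smaller group makes no overlap easier to reach. For counts by unadjusted p or without overlap, the shares of all tested genes are not given in these fits or the alternatives below. Such counts are therefore not read as results about the members. The member medians ran from -0.16 (without Ybx1-KO 1) to 0.94 (without control 3), that of complex I from -0.22 to 0.96, of complex III from -0.22 to 0.91, of complex IV from 0.23 to 1.30, of complex V from -0.05 to 0.81 and of the assembly factors from -0.62 to -0.36. With offsets for exon length the medians of complexes I, III, IV and V were 0.49, 0.55, 0.40 and 0.71 and that of the assembly factors -0.095, and with a mean CPM above 1 complex IV had 0.49. With libraries of a shared title number summed, 55 of 88 members were positive with a median of 0.18, and complexes I, III, IV and V had 0.18, 0.15, 0.61 and 0.094. Members higher at an unadjusted p under 0.05 numbered 3 by limma-voom, 13 with relative log expression scaling, 15 with total counts, 11 with upper quartiles, 4 with a mean CPM above 1, 12 with no filter, 17 with offsets for exon length and 4 with libraries of a shared title number summed. Those lower numbered 1 by limma-voom, DESeq2, relative log expression, total counts, no filter and protein-coding genes alone, and 0 with a mean CPM above 1 and with offsets. Those without overlap and higher numbered 1 by DESeq2, relative log expression and protein-coding genes alone and 5 with offsets, and those lower 1 with total counts and 2 with offsets. The cause of these moves was not tested.

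The median of all tested genes moved from 0.31 to 0.51 with total counts, and the members' median lay 0.20 above it with TMM and 0.22 above it with total counts. It lay below that of all tested genes with no filter (-0.28), with offsets (-0.09), with libraries of a shared title number summed (-0.08), without control 2 (-0.12) and without Ybx1-KO 1 (-0.38). DESeq2 called 214 genes, none of them a member, no filter 193, and summing libraries 106, where the main test called 0 of all genes with 1480 higher and 908 lower at an unadjusted p under 0.05.

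The log2 fold changes of a few named genes changed sign. By limma-voom the sign changed for Cox5b (0.060), Cox4i2 (-0.78) and Cox6b2 (-0.45). By DESeq2 the sign changed for Atp5a1 (0.078), Uqcrc1 (0.022) and Cox5b (0.044). With relative log expression scaling the sign changed for Atp5a1 (0.078), Uqcrc1 (0.022) and Cox5b (0.045). With total counts the sign changed for Atp5a1 (0.18), Ndufv1 (0.063), Uqcrc1 (0.033) and Cox5b (0.13). With upper quartiles the sign changed for Atp5a1 (0.055), Uqcrc1 (0.0080) and Cox5b (0.012). With a mean CPM above 1 the sign changed for Atp5a1 (0.0086) and Cox5b (0.0078). With no filter the sign changed for Cox7a2l (-0.038) and Nrf1 (-0.12). With protein-coding genes alone the sign changed for Atp5a1 (0.043) and Cox5b (0.013). With offsets for exon length the sign changed for Ndufs1 (0.022), Uqcr10 (-0.30), Cox8a (-0.071), Atp5b (0.15), Atp5a1 (0.40), Ndufv1 (0.22), Uqcrc1 (0.34), Cox5b (0.20), Cox8c (-0.25), Atp5g2 (0.015), Ppargc1a (0.31) and Tfam (0.25). With libraries of a shared title number summed the sign changed for Cox8a (-0.18), Cox7a2 (-0.0093) and Cox7a2l (-0.26).

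Leaving out 1 library at a time gave Cox8a -0.034 to 1.20, Atp5a1 -0.15 to 0.057, Cox7a2l -0.51 to 0.41, Uqcr10 -0.062 to 0.86, Cox7a2 -0.55 to 0.81, Ndufv1 -0.55 to 0.063, Uqcrc1 -0.49 to 0.16, Cox5b -0.45 to 0.41, Atp5g2 -0.49 to 0.35, Nrf1 -0.16 to 0.18, Ndufc2 -0.49 to 1.10, Ndufb9 -0.26 to 0.92, Uqcrh -0.30 to 0.96, Uqcrb -0.13 to 1.73, Ndufa4 -0.39 to 0.71, Atp5g1 -0.010 to 1.02, Sdhc -0.018 to 1.41, Atp5b -0.52 to 0.0061, Cox4i2 -5.57 to 2.17, Cox6b2 -1.24 to 1.39, Cox8b -0.21 to 5.52 and Cox8c -4.65 to 6.37. No paired analysis was possible because the groups share no replicate number. The depth of 4743279 counts in the shallowest library limits the genes of a few counts, such as Cox7b2 and Cox8c, whose values rest on 1 library.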
